A study of Mus musculus with 21 samples.

Results

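Gene expression in Glast+ cells of the mature mouse retina was set against that in Notch1+ cells of the newborn retina, the most distant pair of samples in a study of how Müller glia develop. The comparison held 5 of the 21 arrays of the series, chosen by their titles: 2 arrays of Glast+ cells from retinas at postnatal day 28 (P28) and 3 arrays of Notch1+ cells from retinas at birth (P0). All mice were of strain C57BL/6, and no mutation or treatment is given for either group. Cells were captured on magnetic beads through the surface protein Glast, the glutamate transporter encoded by Slc1a3, or through the receptor Notch1, and each sample pooled many cells. The submitters call Glast+ P28 cells adult Müller glia and Notch1+ P0 cells retinal progenitors. Age and the antibody used for capture both differ between these groups, so that their effects cannot be told apart.

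Müller glia are the main glial cells of the retina. They span its whole thickness, take up glutamate, potassium and water released by neurons, and recycle visual pigment for cones. They come from the same progenitors as retinal neurons, late in development, and keep several transcription factors of those progenitors. Retinal progenitors divide, and Notch signalling between neighbouring cells holds a part of them undifferentiated while proneural factors drive others to become neurons.

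Of 34312 mouse transcript probes, the scanner software found 67.4% and 71.6% on the Glast+ P28 arrays and 55.4% to 64.9% on the Notch1+ P0 arrays. Probes at or below local background made up 0.297% to 0.734% on the Glast+ P28 arrays and up to 34.1% on the Notch1+ P0 arrays, and saturated probes numbered 5 on each Glast+ P28 array and 66 to 154 on the Notch1+ P0 arrays. The labels speak of independent replicates, but the Glast+ P28 arrays carry a shared sample code. Their probe values differed with an SD of 0.203 in log2 units (r = 0.996 across probes), less than any other pair of replicates in the series. Notch1+ P3 replicates 2 and 3, which carry different codes, came close to this, with an SD of 0.216. Because of the shared code, the Glast+ P28 arrays were averaged and counted as 1 sample. The spread of that lone sample was taken to be like that of the other groups. The Notch1+ P0 arrays correlated with each other at 0.980 to 0.990. All Glast+ arrays were scanned on a day of their own, so that the day of scanning and the antibody cannot be told apart. Glast+ P28 against Glast+ P7 cells, which share sort and scan day, is given beside the main lists below. It shares the Glast+ P28 arrays with the main comparison.

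Levels are log2 normalized intensities of a gene's brightest probe, on a scale that ends near 16, where differences are compressed. Each difference is the level in Glast+ P28 cells minus that in Notch1+ P0 cells, so that 1 stands for a 2-fold ratio. A gene was called where limma, fitted over all 8 groups of the series, gave an adjusted p (Benjamini-Hochberg) below 0.05. A ratio is written as a bound ("at least N-fold") if all arrays of either group failed to find the probe or saturated it. For a probe not found, each dim array was set to its own value or to its dimmest found probe, whichever was brighter, before averaging.

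The cell populations differed in a large part of the measured genes, with about as many genes higher as lower in Glast+ P28 cells. Of 12612 genes, 5160 (40.9%) were called, 2574 (20.4%) higher and 2586 (20.5%) lower in Glast+ P28 cells. Differences beyond 2-fold were called for 4155 genes, and those beyond 16-fold for 303 higher and 110 lower genes. With the Glast+ P28 arrays counted as 2 samples, 6672 genes were called. The arrays of the groups did not overlap for 75.4% of all genes, so that lack of overlap alone sets few genes apart. The split by direction depended on the normalization. With arrays scaled to equal medians, 23.3% of 5327 calls were higher, and the median difference over all genes was −0.45, against −0.0041 after quantile normalization. Cyclic loess gave 59.2% higher among 4402 calls, with a median of 0.10 over all genes, and the authors' values a median of 0.25. Between Glast+ P28 and Glast+ P7 cells 2997 genes (23.8%) were called, 1483 (11.8%) higher and 1514 (12%) lower at P28.

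**Figure D1:**
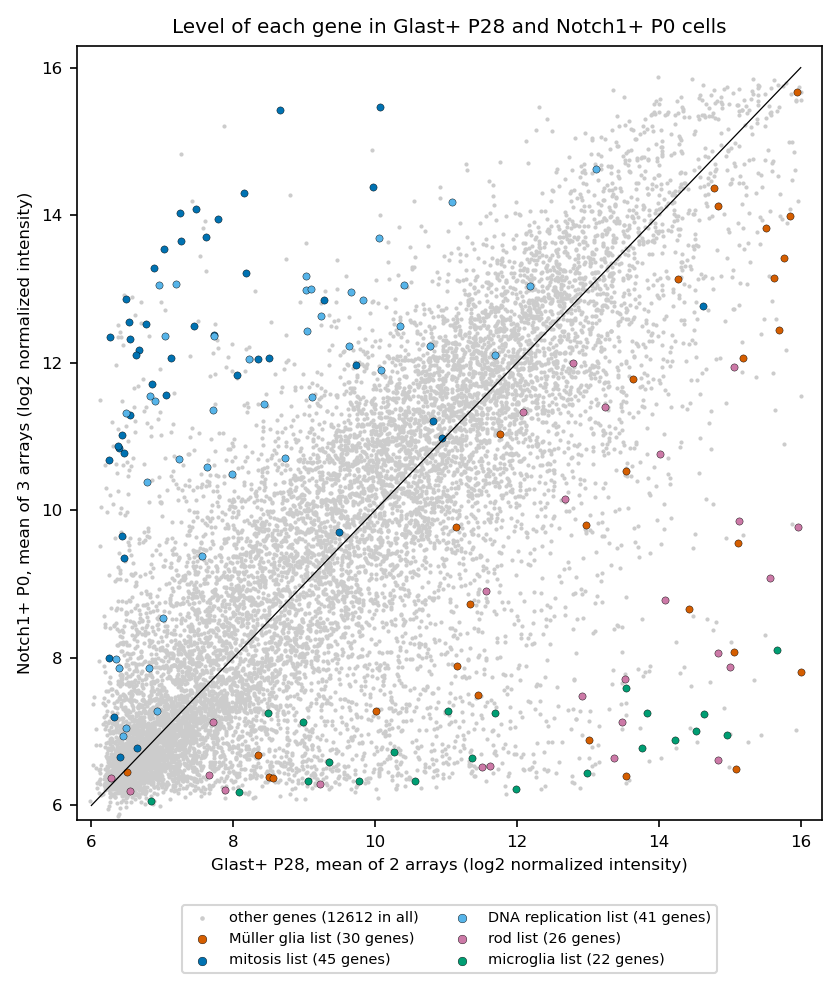
Mean level of every gene in Glast+ P28 cells (2 arrays, horizontal axis) and in Notch1+ P0 cells (3 arrays, vertical axis), in log2 normalized intensity, with equal levels on the diagonal. Most Müller glia, rod and microglia genes lie below the diagonal, higher in Glast+ P28 cells, and most mitosis and DNA replication genes lie above it, with Spc25 far below.

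The captured proteins' own transcripts were checked for the labels. Slc1a3 stood at 15.85 on both Glast+ P28 arrays and between 13.73 and 14.12 on the 3 Notch1+ P0 arrays, a rise of 1.87 (SE 0.60, adjusted p = 0.0211). It was well above background in both populations, and with median scaling its difference was no longer called (adjusted p = 0.0856). Notch1 stood at 13.61 and 13.67 in Glast+ P28 cells, against 15.11, 15.07 and 15.30 in Notch1+ P0 cells, a fall of −1.52 (SE 0.27, adjusted p = 0.000397). Both transcripts thus differed in the direction of the sort between these groups, and each was found on all 5 arrays. At P7, Slc1a3 averaged 15.89 in Glast+ and 15.61 in Notch1+ cells. Notch1 averaged 15.07 in Glast+ and 14.71 in Notch1+ cells at P7, against the direction of the sort.

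Genes of Müller glia were higher in Glast+ P28 cells. Of 30 Müller glia genes tested, 23 rose and 0 fell, with a median difference of 2.54 against −0.0041 over all genes. The retinaldehyde-binding protein gene Rlbp1, which serves the visual cycle, stood at 15.14 and 15.08 in Glast+ P28 cells and at 9.62, 9.63 and 9.42 in Notch1+ P0 cells. Its difference was 5.55 (SE 0.70, adjusted p = 1.49e-05), and the groups were far apart. Glul, the glutamine synthetase that detoxifies glutamate, averaged 15.18 in Glast+ P28 cells and 12.07 ± 0.42 in Notch1+ P0 cells (SD, n = 3), a difference of 3.11. The lipid carrier gene Apoe averaged 15.69 in Glast+ P28 cells and 12.45 ± 0.12 in Notch1+ P0 cells, 3.24 higher. All of these transcripts were found on every Notch1+ P0 array, at lower levels.

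Further Müller genes were low or not found in newborn cells. Clu, a secreted chaperone, was saturated, at the top of the scale, on both Glast+ P28 arrays and stood at 8.32, 7.58 and 7.52 on the Notch1+ P0 arrays, at least 294-fold higher in Glast+ P28 cells (adjusted p = 1.16e-08). Abca8a, a lipid transporter, read 15.07 and 15.12 in Glast+ P28 cells and was found on no Notch1+ P0 array, at least 389-fold higher (adjusted p = 4.2e-09). The water channel gene Aqp4 read 13.54 and 13.53 in Glast+ P28 cells and was found on no Notch1+ P0 array, at least 141-fold higher (adjusted p = 2.26e-08), although its other probes gave differences of 4.48 and 0.19. Timp3, an inhibitor of matrix metalloproteinases, rose by 6.98 (adjusted p = 8.03e-10), with 2.45 at its other probe.

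Over the ages of the Glast+ sort, some Müller genes were high from P7 and others increased later. Mean levels of Rlbp1 in Glast+ cells were 14.67 at P7, 15.04 at P14, 14.75 at P21 and 15.11 at P28, and those of Apoe 15.43, 15.95, 15.85 and 15.69 at the same ages. Both were thus close to the P28 level at P7, and neither was called between P28 and P7 (0.44 for Rlbp1 and 0.26 for Apoe). Aqp4 averaged 7.04 at P7, 13.19 at P14, 13.26 at P21 and 13.53 at P28, and Abca8a 8.69, 13.80, 13.97 and 15.09 at these ages. Clu averaged 11.82 at P7 and 15.94 at P14. Between Glast+ P28 and P7 cells Aqp4 rose by 6.49, Abca8a by 6.40, Clu by 4.18 and Timp3 by 2.27, and Glul rose too, while Slc1a3 differed by −0.04 (adjusted p = 0.97). Of the 30 Müller genes, 10 rose and 0 fell in that comparison, with a median of 0.62.

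Genes of Müller glia function were higher in part. Of 25 genes for transport, metabolism and the visual cycle, 13 rose and 1 fell, with a median of 1.41. Besides those named above, Car14, a carbonic anhydrase of Müller cell membranes, was 5.76 higher in Glast+ P28 cells (adjusted p = 2.37e-06), and Pygb, a glycogen phosphorylase, was 3.42 higher (adjusted p = 4.8e-05). The retinol dehydrogenase gene Rdh11 was lower by a small amount (−0.67, adjusted p = 0.0333), a call lost under 5 alternatives. Vim, an intermediate filament of progenitors and Müller glia, rose by 0.71 (adjusted p = 0.0295), with levels of 14.85 and 14.83 in Glast+ P28 cells and 14.06 to 14.18 in Notch1+ P0 cells, but had the opposite sign under median scaling (−0.36). Dkk3, a secreted Müller protein, was near the top of the scale in both populations, at 15.95 in Glast+ P28 cells and 15.66 ± 0.12 in Notch1+ P0 cells, and was not called.

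**Figure D2:**
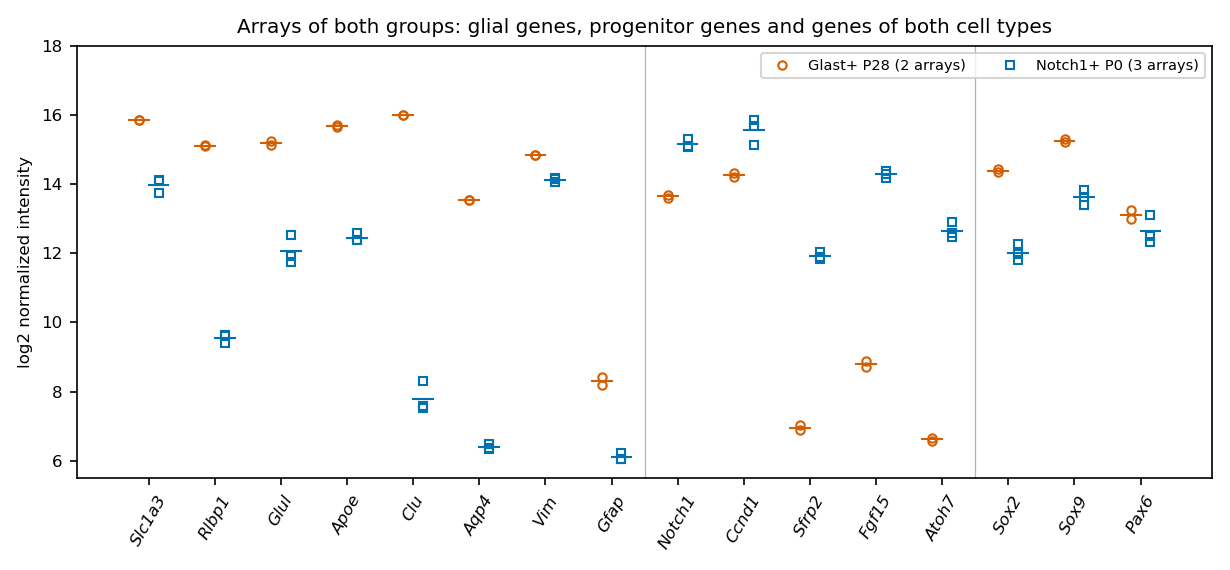
Level on each array, in log2 normalized intensity, of 16 genes in Glast+ P28 cells (circles, 2 arrays) and Notch1+ P0 cells (squares, 3 arrays), with lines at the group means. Glial genes stand left of the first line, progenitor and neurogenic genes between the lines, and transcription factors of both cell types on the right, where the groups of Pax6 overlap.

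The cell cycle programme was far lower in Glast+ P28 cells. Of 45 mitosis and G2/M genes, 39 fell and 1 rose, with a median of −4.65, and of 41 DNA replication and G1/S genes, 37 fell and 0 rose, with a median of −3.00. Summed over the mitosis list, intensity ranged from 38241 to 39230 on the Glast+ P28 arrays and from 340934 to 367131 on the Notch1+ P0 arrays. In bulk samples, fewer cells of a kind and less RNA per cell cannot be told apart. Promoters of the mitosis genes with the smallest adjusted p are shown because the members fell together. Top2a, the topoisomerase that untangles chromosomes, has its promoter at chr11:99024140-99024439 on the minus strand. Ttk, a spindle checkpoint kinase, has it at chr9:83834439-83834738 on the plus strand. Kif23, a kinesin of cell division, has it at chr9:61946750-61947049 on the minus strand. Cdc20, an activator of the anaphase-promoting complex, has it at chr4:118437294-118437593 on the minus strand. Sequences are RefSeq's for build GRCm38.p6, 5′ to 3′ on the gene's strand, from 250 bases before to 50 after the start. Capitals mark TTTGAA, a core of the cell cycle genes homology region (CHR) that MuvB complexes bind, and CCAAT, the box bound by NF-Y, on either strand.
Top2a: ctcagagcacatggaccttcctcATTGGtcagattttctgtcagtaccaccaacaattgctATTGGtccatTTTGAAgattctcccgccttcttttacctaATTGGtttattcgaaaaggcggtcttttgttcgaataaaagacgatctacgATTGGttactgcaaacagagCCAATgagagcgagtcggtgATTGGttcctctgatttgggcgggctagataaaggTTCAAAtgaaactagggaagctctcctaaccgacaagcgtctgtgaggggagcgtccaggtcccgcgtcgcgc
Ttk: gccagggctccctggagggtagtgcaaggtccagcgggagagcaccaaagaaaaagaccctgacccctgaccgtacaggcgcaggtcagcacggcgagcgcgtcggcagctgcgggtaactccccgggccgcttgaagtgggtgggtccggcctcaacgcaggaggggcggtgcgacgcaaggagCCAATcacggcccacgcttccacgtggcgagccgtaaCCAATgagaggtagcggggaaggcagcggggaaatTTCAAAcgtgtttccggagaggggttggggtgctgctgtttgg
Kif23: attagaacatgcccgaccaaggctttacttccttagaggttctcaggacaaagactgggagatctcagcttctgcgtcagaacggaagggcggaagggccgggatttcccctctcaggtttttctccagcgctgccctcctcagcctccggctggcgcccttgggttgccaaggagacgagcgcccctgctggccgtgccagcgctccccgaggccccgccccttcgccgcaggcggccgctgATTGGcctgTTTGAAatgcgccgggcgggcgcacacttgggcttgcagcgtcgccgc
Cdc20: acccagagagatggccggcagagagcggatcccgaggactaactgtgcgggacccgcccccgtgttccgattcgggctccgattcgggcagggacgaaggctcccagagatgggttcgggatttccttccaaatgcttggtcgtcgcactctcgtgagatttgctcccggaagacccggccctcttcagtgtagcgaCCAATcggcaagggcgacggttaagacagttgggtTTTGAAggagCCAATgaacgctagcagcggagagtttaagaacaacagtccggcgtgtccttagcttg

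RefSeq gave a promoter for 34 of the 45 mitosis genes and 34 of the 41 replication genes. TTTGAA stood in 22 mitosis genes (64.7%), in 6 replication genes (17.6%) and in 15.2% of the 10037 tested genes with a promoter. These shares count genes. Among all 27025 mouse genes with a RefSeq promoter of that length it stood in 20.2%, and counted by promoter in 17.9% of 32851. CCAAT stood in 70.6% of the mitosis genes, 61.8% of the replication genes and 43.0% of the tested genes, against 33.3% of 21 Müller genes with a promoter. Both motifs together stood in 55.9% of mitosis genes, 11.8% of replication genes, 0 of the Müller genes and 6.11% of tested genes. The E2F site TTTCCCGC, searched on both strands, stood in 0 mitosis genes, 14.7% of replication genes and 2.04% of tested genes. TTTGGCGC, another E2F site, stood in 2.94%, 17.6% and 0.917% of these. Matches of different motifs may overlap, and a match describes the sequence, not a bound site.

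Top2a stood at 6.65 and 6.33 in Glast+ P28 cells, where it was found on 1 of 2 arrays, against 12.86, 13.04 and 12.70 in Notch1+ P0 cells (difference −6.37, SE 0.29, adjusted p = 1.24e-09). Ttk, not found in Glast+ P28 cells, was lower by at least 22-fold (adjusted p = 4.2e-09). Kif23 differed by −6.08 (adjusted p = 8.6e-09) and Cdc20 by −6.62 (adjusted p = 1.15e-08), with −2.86 and 0.02 at the other Cdc20 probes. The B-type cyclin gene Ccnb1 and its kinase Cdk1, which start mitosis, differed by −6.40 and −6.39, with −0.56 at the other Cdk1 probe. On the Glast+ P28 arrays the levels of Top2a, Ttk, Kif23, Cdc20, Ccnb1 and Cdk1 lay between 6.33 and 7.69. Among the 12 largest falls with all probes in the same direction, further division genes were Cdca3 (−7.34), Cenpe (−6.79, with −1.62 at its other probe), Prc1 (−6.77), Kif2c (−6.52) and Pimreg, at least 88.2-fold lower.

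DNA replication genes fell by smaller amounts. Uhrf1, which reads newly copied methylated DNA, stood at 6.98 and 6.92 in Glast+ P28 cells and at 13.07, 13.44 and 12.65 in Notch1+ P0 cells (difference −6.10, adjusted p = 2.69e-08). Rrm2, the regulated subunit of ribonucleotide reductase, differed by −5.86 (its weakest probe by −0.58), the polymerase gene Pole by −4.59 and the replicative helicase gene Mcm7 by −4.16, with adjusted p of 3.25e-08, 6.64e-08 and 3.3e-08. Between Glast+ P28 and P7 cells 33 mitosis genes fell (median −2.11) and 16 replication genes fell (median −0.92), with 1 riser in each list.

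Spc25, a subunit of the Ndc80 complex that ties chromosomes to the spindle, was the mitosis gene that rose. It stood at 14.59 and 14.64 in Glast+ P28 cells, against 12.81, 12.68 and 12.83 in Notch1+ P0 cells (1.85, SE 0.32, adjusted p = 0.000301), and its difference was not called under median scaling (0.75). In Glast+ cells it averaged 11.76 at P7, 13.29 at P14 and 14.36 at P21. Its partners, named after their values were seen, did not share this course. Ndc80, not found in Glast+ P28 cells, was lower by at least 21.7-fold, Spc24 differed by −5.48 (adjusted p = 1.37e-06), and Nuf2, near the floor in both populations, was not called.

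Among regulators of cell cycle exit, 2 of 10 CDK inhibitors and pocket proteins rose and 2 fell, a share near the 40.9% called over all genes. Cdkn1b (p27), which restrains CDK2, rose by 2.36 (adjusted p = 0.000169, with 0.10 at its other probe, and not called under median scaling) and Cdkn2b, an inhibitor of CDK4 and CDK6, by 2.48 (adjusted p = 0.000401), while Rbl1 (p107) fell by −2.19 and Cdkn2c by −1.94. Cdkn1b was at 13.4 in Glast+ P7 cells too, and was not called between Glast+ P28 and P7 (−0.18). Cyclin D1 (Ccnd1), the main D-type cyclin of progenitors, was saturated on all 3 Notch1+ P0 arrays and at least 2.45-fold lower in Glast+ P28 cells (14.33 and 14.19, adjusted p = 0.0106), where its other probes differed by −2.75, −2.99 and −3.73. Under cyclic loess the Ccnd1 call was lost (adjusted p = 0.15). Ccnd2 ran the other way, with 10.91 and 10.86 in Glast+ P28 cells and 7.38 to 7.72 in Notch1+ P0 cells (3.29, adjusted p = 0.000686).

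Neurogenic factors were lower in Glast+ P28 cells. Of 29 tested, 21 fell and 0 rose, with a median of −3.16. Atoh7, needed for ganglion cells, stood at 6.57 and 6.67 in Glast+ P28 cells and at 12.90, 12.59 and 12.45 in Notch1+ P0 cells (−6.03, adjusted p = 1.15e-08), and Foxn4 and Ptf1a, which drive amacrine and horizontal fates, by −6.25 and −5.54. Each of these was several units apart between the groups, with no overlap of arrays, which held for 75.4% of all genes too. Atoh7, Foxn4 and Ptf1a were low in Glast+ cells at P7 already, with means of 6.7, 8.4 and 7.9. Against Glast+ P7 cells 15 of the 29 genes fell, with a median of −1.76.

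Progenitor genes did not fall as a body. Of 24 retinal progenitor genes, 4 rose and 7 fell, a share near the 40.9% called over all genes, with a median of −0.29. Secreted progenitor signals fell most: Fgf15 stood at 8.73 and 8.88 in Glast+ P28 cells and between 14.17 and 14.37 in Notch1+ P0 cells (−5.48, adjusted p = 2.2e-06), and the Wnt modulator Sfrp2 at 7.04 and 6.89 in Glast+ P28 cells and at 11.83, 12.02 and 11.89 in Notch1+ P0 cells (−4.95, adjusted p = 5.51e-05). The RNA-binding protein gene Igf2bp3 fell by −4.41 (adjusted p = 2.35e-06). Igf2bp1 had probes of opposite sign, 1.30 and −5.73, and no direction is given for it. It counts among the 4 rises through its brightest probe. Sox2, Hes1 and Ccnd2 rose. There were 3 rises and 6 falls against Glast+ P7 cells, with a median of −0.53.

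Of 24 transcription factors that progenitors and Müller glia share, 9 rose in Glast+ P28 cells, 1 fell and 14 were not called, with a median of 0.89. The share called is near the 40.9% of all genes. Against Glast+ P7 cells 2 rose and 2 fell, with a median of −0.21. With arrays scaled to equal medians the median was −0.24, against −0.45 over all genes, and 3 rose. Hes1, a Notch effector, stood at 15.33 and 15.39 in Glast+ P28 cells and at 11.87, 12.14 and 11.41 in Notch1+ P0 cells (3.56, adjusted p = 8.97e-07). Sox2 rose by 2.36 (adjusted p = 0.0132), with 0.59 at its other probe, and Sox9, needed for Müller glia to form, by 1.64 (adjusted p = 0.0118). The gliogenic factors Nfia, Nfib and Nfix rose by 1.78 (−0.01 at the lowest Nfia probe), 1.21 and 1.68, Id3 by 2.47, Hey2 by 2.33 and Zfp36l1 by 1.39. All of these but Hes1, Id3 and Hey2 lost their call under median scaling. Hey2 stood at 9.76 and 9.92 in Glast+ P28 cells and averaged 11.02 in Glast+ P7 cells, so that it fell against P7 (−1.18, adjusted p = 0.0468).

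Most eye field and progenitor factors were not called. Lhx2 stood at 11.30 and 11.14 in Glast+ P28 cells and at 11.02, 11.03 and 11.21 in Notch1+ P0 cells (0.13, SE 0.54), Six6 differed by −0.05 (SE 0.68), Nr2e1 by −0.03 (SE 0.83), Rax by −0.72 (SE 0.73), Hes5 by −0.35 (SE 0.88) and Pax6 by 0.48 (SE 0.84). Probes of Rax (1.62 at the other) and of Pax6 (−0.80 at the other) had opposite signs. Standard errors of this size mean that these values do not show equal levels. Six3, a further eye field factor, was lower (−0.99, adjusted p = 0.0061) but near background, a call lost under 4 alternatives, at 6.73 and 6.33 in Glast+ P28 cells and 7.46 to 7.57 in Notch1+ P0 cells. Sox8, Hey1, Id1, Id2, Id4, Nr2f1 and Nr2f2 were not called either.

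**Figure D3:**
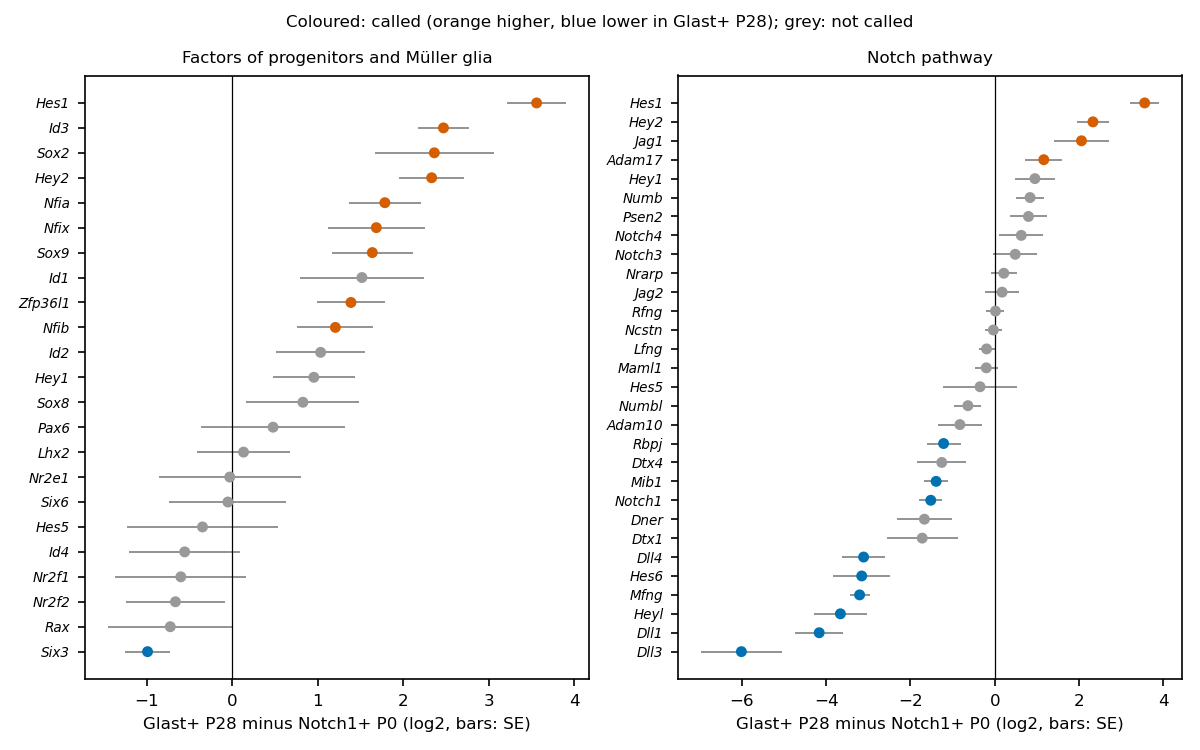
Difference of factors of progenitors and Müller glia (left) and of Notch pathway genes (right), Glast+ P28 minus Notch1+ P0 in log2 normalized intensity, with bars of 1 SE. Hes1 heads both panels at 3.56, and the Delta ligands Dll1, Dll3 and Dll4 lie among the lowest genes of the Notch pathway.

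Within the Notch pathway, ligands of the Delta family fell while a Jagged ligand rose. Of 30 genes, 4 rose and 9 fell, a share near the 40.9% called over all genes, with a median of −0.27. Against Glast+ P7 cells 2 rose and 12 fell, with a median of −0.96. Dll1 stood at 6.92 and 6.76 in Glast+ P28 cells and at 10.99, 10.83 and 11.18 in Notch1+ P0 cells (−4.17, adjusted p = 3.42e-05). Dll3, not found in Glast+ P28 cells, was lower by at least 64.5-fold (adjusted p = 0.000131). Dll4 differed by −3.11 (adjusted p = 0.000166), with −0.40 at its other probe. Jag1 stood at 9.34 and 9.66 in Glast+ P28 cells and at 7.68, 7.38 and 7.27 in Notch1+ P0 cells (2.06, adjusted p = 0.0201), and its call was lost under median scaling. Jag2 was near background in both populations.

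Among receptors, Notch1 fell as given above, and Notch3 and Notch4 were not called (0.49 and 0.63). Enzymes that act on receptor or ligand were mixed: the fringe glycosyltransferase gene Mfng fell by −3.21 (adjusted p = 6.6e-08), Mib1, whose ubiquitin ligase activates ligands, by −1.39 (adjusted p = 0.00101), and the sheddase gene Adam17 rose by 1.16 (adjusted p = 0.0464), a call lost under 8 of 18 alternatives. Lfng, Rfng, Ncstn, Psen2, Adam10, Numb, Numbl, Maml1, Dner, Dtx1 and Dtx4 were not called, but Numb (0.84) was called under 9 alternatives, Dner (−1.67) under 7 and Dtx4 (−1.26) under 5. Hes and Hey family genes split in direction. Hes1 and Hey2 rose, while Hes6 (at least 8.92-fold lower, saturated on the Notch1+ P0 arrays) and Heyl (−3.66, adjusted p = 0.000235) fell. Hes5, Hey1 and Nrarp were not called. Nrarp was at 13.37 and 13.33 in Glast+ P28 cells and at 12.95 to 13.29 in Notch1+ P0 cells, and fell by −0.94 under median scaling (adjusted p = 0.0336). Rbpj, the pathway's DNA-binding protein, fell by −1.21 at a probe near background, a call lost under 5 alternatives, with 0.02 at its other probe.

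Genes of reactive gliosis and of the stress response were higher in Glast+ P28 cells. Of 24 gliosis genes, 21 rose and 1 fell, with a median of 3.09, and of 28 immediate-early and dissociation stress genes, 21 rose and 0 fell, with a median of 3.03. The cytokine receptor gene Osmr was at least 23.8-fold higher (adjusted p = 2.91e-06), and its partner Il6st rose by 2.93 (adjusted p = 4.49e-07), with −0.17 at its other probe. The endothelin gene Edn2, not found in Notch1+ P0 cells, was at least 9.48-fold higher (adjusted p = 5.17e-07), and the complement gene C4b was 3.40 higher (adjusted p = 3.49e-06), with 0.10 at its lowest probe. Gfap, the filament that marks reactive Müller cells, stood at 8.42 and 8.19 in Glast+ P28 cells, against 6.06, 6.23 and 6.05 in Notch1+ P0 cells, and was found on 1 of these 3 arrays. It was low on the scale throughout, with a difference of 0.36 at its other probe. Its call (2.19, adjusted p = 0.0286) was lost without replicate 1 or 3 of Notch1+ P0, with an adjusted p of up to 0.0523. Nes, another intermediate filament of that list, fell by −1.08 (adjusted p = 0.0318), with 0.25 at its other probe, a call lost under 4 alternatives.

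Atf3, a stress-induced transcription factor, stood at 15.57 and 15.43 in Glast+ P28 cells, against 8.51, 8.28 and 8.15 in Notch1+ P0 cells (7.19, adjusted p = 1.77e-08). Ier3 rose by 6.07, the small heat shock protein gene Hspb1 by 5.69 (0.12 at its other probe) and Junb, an AP-1 subunit, by 5.33. Against Glast+ P7 cells, 15 stress genes and 15 gliosis genes rose and 0 and 1 fell. Over the Glast+ ages the stress list did not rise steadily: its mean level lay between 11.25 and 11.42 at P7, 12.88 and 13.52 at P14, 11.36 and 12.54 at P21, and at 13.39 and 13.40 at P28.

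Of 21 interferon and MHC class I genes, 16 rose and 0 fell, with a median of 2.85. The immunoproteasome genes Psmb8 and Psmb9 rose by 6.26 (0.47 at the lowest Psmb8 probe) and 4.80, the antiviral membrane protein gene Ifitm3 by 6.37 and the class I gene H2-K1 by 3.95, with adjusted p from 8.66e-08 to 2.91e-06. Class I genes are near-identical copies, and their probes may not tell them apart. Against Glast+ P7 cells 18 of the 21 rose, with a median of 1.81.

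Markers of other retinal cells moved with these groups. Of 22 microglia and macrophage genes, 21 rose and 0 fell, with a median of 4.58, and summed intensity of the list ranged from 215688 to 223023 on the Glast+ P28 arrays and from 2597 to 3049 on the Notch1+ P0 arrays. Tmem119, a marker of microglia, stood at 14.62 and 14.66 in Glast+ P28 cells and at 7.60, 6.83 and 7.27 in Notch1+ P0 cells. Outside this list, the chemokine genes Ccl4 and Ccl3 were 8.48 and 8.39 higher. Icam1, an adhesion gene, was 8.05 higher and the selectin ligand gene Selplg at least 354-fold, both also outside the list. The adhesion gene Vcam1 rose by 7.59. Which cells these transcripts came from was not tested. The complement gene C1qc, of the microglia list, stood at 14.95 and 14.97 in Glast+ P28 cells and at 7.28, 7.05 and 6.54 in Notch1+ P0 cells. These genes other than Tmem119 were among the 12 largest rises. Levels of the microglia list were higher still in Glast+ cells at P14, with list means of 12.31 to 13.07, than at P28, with 11.59 and 11.65. The microglia marker P2ry12 was found on no Notch1+ P0 array. The part of these cells in the gliosis, stress, interferon and MHC results was not tested.

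Of 26 rod genes, 19 rose and 0 fell, with a median of 4.13 and summed intensity of 386063 to 390005 on the Glast+ P28 arrays, against 20824 to 22774 on the Notch1+ P0 arrays. Pde6b, a subunit of the rod phosphodiesterase, stood at 14.83 and 14.85 in Glast+ P28 cells, against 7.84, 8.15 and 8.19 in Notch1+ P0 cells (6.78, adjusted p = 5.03e-06). Its partner Pde6g rose by 6.48, and Guca1a, a guanylate cyclase activator, by 6.35. Most rod genes were higher in Glast+ P28 cells, while 7 of the 26 were not called. At birth, 4 of them were found on no Notch1+ P0 array and some others on all 3. The mean of the rod list was highest in Glast+ cells at P21. Of 12 cone genes, 3 rose and 0 fell: Opn1mw (6.00), Arr3 (4.54) and Pde6h (4.12). The share of the cone list that was called is below the 40.9% of all genes. The cone opsin gene Opn1sw was found on 1 Glast+ P28 array and no Notch1+ P0 array.

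Of 30 endothelial and pericyte genes, 19 rose and 0 fell, with a median of 2.35 and summed intensity of 108272 to 109626 on the Glast+ P28 arrays, against 11322 to 12248 on the Notch1+ P0 arrays. The VEGF receptor gene Flt1 rose by 7.64, with 1.93 at its other probe, and Cav1, the main protein of caveolae, by 7.68. Ptprb was at least 69-fold higher (0.19 at its other probe), Icam2 rose by 5.64 and Mmrn2 by 5.39. Endothelial Cldn5 was high in newborn Notch1+ cells already, at 14.19 in Glast+ P28 cells and 12.38 in Notch1+ P0 cells. The part of rod, vessel and microglia RNA in the Müller glia results was not tested. Of 11 astrocyte genes, 7 rose and 1 fell (Olig1, −1.28, adjusted p = 0.0329), a call lost under 6 alternatives with an adjusted p of up to 0.283. Aldh1l1, an enzyme of astrocytes and Müller glia, rose by 4.09 and the angiotensinogen gene Agt was at least 32-fold higher.

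Neuronal lists other than rods moved little or both ways. Of 17 bipolar cell genes, 3 rose and 2 fell, of 19 amacrine and horizontal cell genes 3 rose and 4 fell, and of 21 ganglion cell genes 2 rose and 5 fell, with medians of 0.28, 0.16 and −0.15. The share called in each of these lists is below the 40.9% of all genes. The medians of amacrine genes (−0.14 under median scaling) and ganglion cell genes (0.31 with the authors' values) changed sign with the scaling. Among ganglion cell and early neuronal genes, Tubb3 fell by −3.19, Stmn2 by −3.08 and Elavl3 by −1.19. Elavl4 was at least 3.96-fold lower, with 0.32 at another probe. The glycoprotein gene Thy1 rose by 4.95, with 0.20 at its other probe. Slc17a8, the vesicular glutamate transporter VGLUT3, rose by 4.46 (adjusted p = 4.2e-09) from the amacrine list, and averaged 6.41 in Glast+ cells at P7, 10.11 at P14 and 10.04 at P21. Vsx1, a bipolar cell factor, was found on none of the 5 arrays, and Tyrp1, a pigment cell gene, on no Glast+ P28 array.

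Of 11 pigment epithelium genes, 4 rose and 1 fell, with Rpe65 found on no Notch1+ P0 array and not called. The shares called in this list and in the lens list are near the 40.9% of all genes. Of 11 lens genes, 5 rose and 0 fell. Among them was Cryab, the largest rise of the whole comparison by the naming rule, a small heat shock protein that glia also express, at 15.95 and 15.92 in Glast+ P28 cells and 6.89 to 7.11 in Notch1+ P0 cells (8.90, adjusted p = 5.83e-08). Cryab was at 14.4 in Glast+ P7 cells and was not called between P28 and P7 (1.52). The crystallin genes Crybb1 (at least 14.7-fold) and Cryba4 (3.29) rose, while Crybb2 was not called. Of 5 erythroid genes, 3 rose and 1 fell, led by the globin gene Hba-a1 (5.22, SE 1.23).

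**Figure D4:**
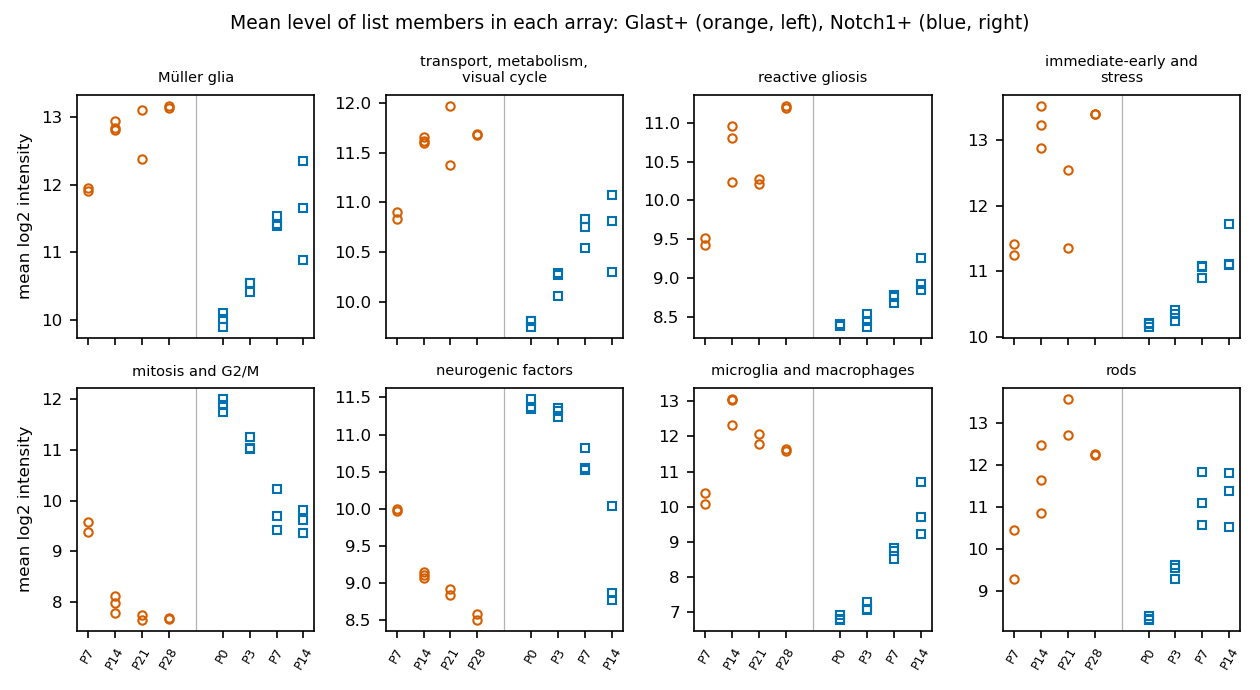
Mean log2 normalized intensity of the members of 8 gene lists on each array, for Glast+ cells at P7, P14, P21 and P28 (orange circles, left) and Notch1+ cells at P0, P3, P7 and P14 (blue squares, right). Mitosis genes average between 7.66 and 7.68 on the Glast+ P28 arrays and between 11.75 and 12.01 on the Notch1+ P0 arrays, while Müller glia genes average between 13.14 and 13.17 on the Glast+ P28 arrays and between 9.90 and 10.11 on the Notch1+ P0 arrays.

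Of 18 genes of DNA methylation, 9 fell in Glast+ P28 cells, 2 rose and 7 were not called, with a median of −0.75. Over all alternatives 7 to 13 of them fell. Dnmt1, which copies methylation after replication, stood at 9.44 and 9.47 in Glast+ P28 cells and at 12.34, 12.64 and 12.45 in Notch1+ P0 cells (−3.02, adjusted p = 2.44e-07). The de novo methyltransferase gene Dnmt3b fell by −2.18 (adjusted p = 3.16e-05). Dnmt3a was lower too, at 8.38 and 7.97 in Glast+ P28 cells and 9.21, 8.98 and 9.34 in Notch1+ P0 cells (adjusted p = 0.0261), a call lost under 5 alternatives. Uhrf1, the partner of Dnmt1, fell by −6.10 as given above. Tdg, a glycosylase that removes oxidized methylcytosine, fell by −1.94 (adjusted p = 2.15e-05), and Mbd3, Idh1 and Uhrf2 by −1.57, −1.10 and −0.93. Gadd45b, linked to active demethylation and also a stress gene, rose to 11.87 and 11.80 in Glast+ P28 cells, against 6.67, 7.02 and 6.80 in Notch1+ P0 cells (adjusted p = 1.54e-05), and Zbtb38, which binds methylated DNA, rose by 1.41. Tet3, Mbd1, Mbd2, Mbd4, Gadd45a, Gadd45g and Idh2 were not called.

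Against Glast+ P7 cells, Dnmt1 fell by −1.52 and Tdg by −1.87, whereas Dnmt3b (−0.20) and Dnmt3a (0.22) were not called, and 3 genes of the list fell and 2 rose, with a median of −0.19. Mean Dnmt3b levels in Glast+ cells were 9.4 at P7, 9.5 at P14 and 8.7 at P21. Its lower level against newborn progenitors was therefore present in the Glast+ sort by P7.

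Of 49 histone modification and chromatin remodelling genes, 22 fell and 3 rose, with a median of −0.82. Rbbp4, a histone chaperone, fell by −2.62 (−0.44 at its other probe), the H3K9 methyltransferase gene Suv39h1 by −2.24, the remodeller subunit gene Actl6a by −2.04 and the deacetylase gene Hdac2 by −1.66. Hdac11 (1.63), Sirt2 (1.35) and L3mbtl3 (1.04) were the risers, and none of them was called under median scaling. The L3mbtl3 call (adjusted p = 0.049) was lost under 9 of 18 alternatives. The list had 10 falls and 2 rises against Glast+ P7 cells, with a median of −0.62.

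**Figure D5:**
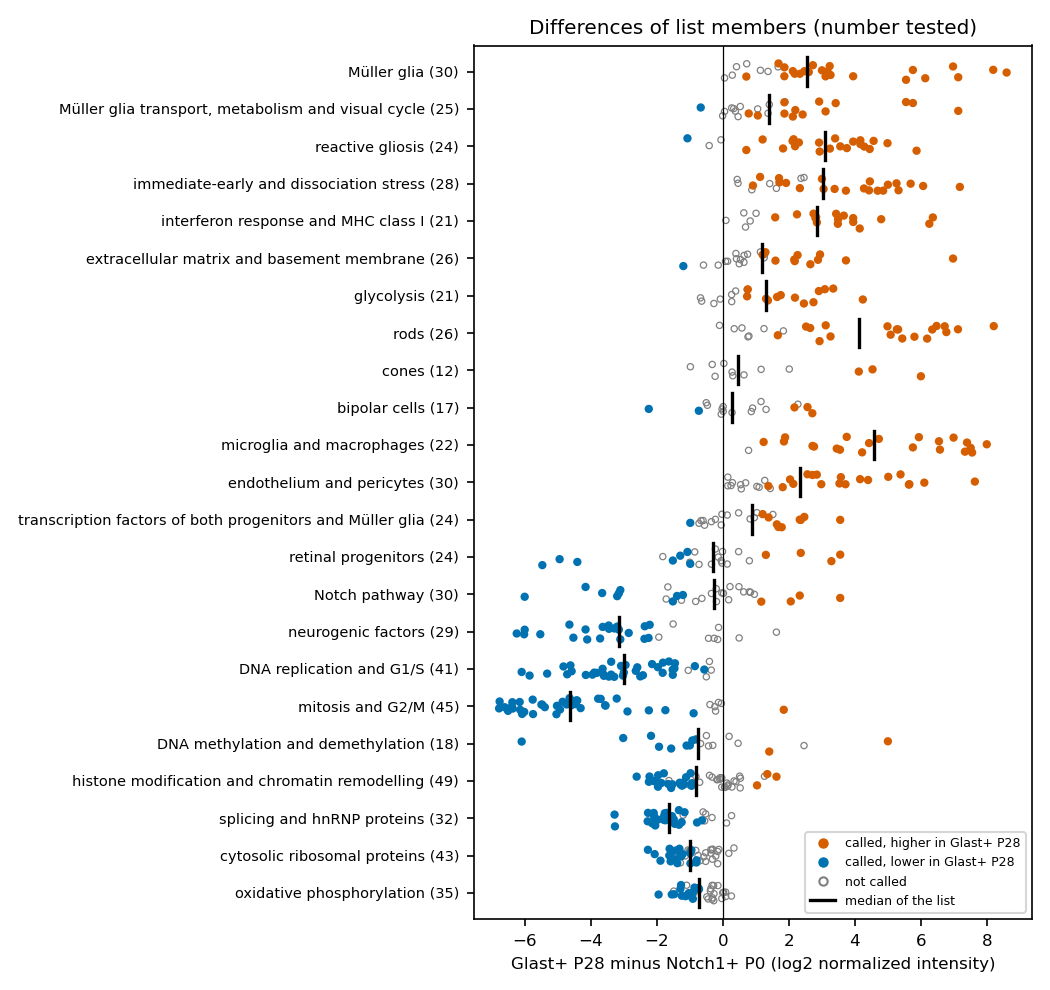
Difference of every tested member of 23 gene lists, Glast+ P28 minus Notch1+ P0 in log2 normalized intensity, with filled points for called genes and a line at each list's median. Medians run from 4.58 for microglia genes to −4.65 for mitosis genes.

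General cell functions were lower in part. Over all genes, 20.5% were called lower and 40.9% in either direction. Of 32 splicing and hnRNP genes, 25 fell and 0 rose (median −1.62), among them Hnrnpa1 (−2.27), Snrpa1 (−1.97), Snrpd1 (−1.78) and Sf3a3 (−1.49). Of 43 cytosolic ribosomal protein genes, 22 fell and 0 rose (median −0.99), with Rpl32 and Rpl5, saturated on all Notch1+ P0 arrays, at least 3.72-fold and 2.61-fold lower, and Rps24 and Rplp0 lower by −2.07 and −2.27. Of 35 oxidative phosphorylation genes, 14 fell and 0 rose (median −0.73), among them Cycs (−1.29), Cox5b (−1.27), Cox5a (−1.04) and Ndufv1 (−0.91). The share of that list that was called is near that of all genes, with every call lower. Medians of these lists kept their sign under all 18 alternatives, some of which cannot move a median. The number of members that fell ranged from 12 to 31 for ribosomal and from 7 to 28 for oxidative phosphorylation genes. Set against Glast+ P7 cells, 14 splicing, 17 ribosomal and 19 oxidative phosphorylation genes fell, and 1 gene, of the last list, rose.

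Glycolysis ran the other way. Of 21 genes, 13 rose and 0 fell, with a median of 1.31. Under median scaling the median was 0.37, with 6 genes higher and 3 lower. The phosphofructokinase genes Pfkp and Pfkl, whose enzymes commit glucose to glycolysis, rose by 4.24 (adjusted p = 2.27e-06, with −0.24 at another probe) and 3.09 (adjusted p = 2.83e-05), Pfkfb3, which makes their activator, by 3.35, and Aldoa, an aldolase, by 2.46. Levels of Pfkl were 13.29 and 13.27 in Glast+ P28 cells and 10.66, 9.34 and 10.56 in Notch1+ P0 cells. Pfkl and Aldoa differed by −0.15 and −0.01 between Glast+ P28 and P7 cells and were not called, and 1 gene of the list rose and 1 fell between Glast+ P28 and P7. Of 19 sterol synthesis genes, 2 rose and 4 fell. Sc5d rose by 2.10, with −0.07 at its other probe, and Fdps, Acat2 and Nsdhl fell by −1.37 (1.06 at the other Fdps probe), −1.09 and −0.86, and the Nsdhl call was lost under 7 alternatives. The share of the list that was called is below the 40.9% of all genes. Its median was −0.42, whereas against Glast+ P7 cells 6 genes rose and 1 fell, with a median of 0.88.

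Of 26 matrix and basement membrane genes, 11 rose and 1 fell, with a median of 1.17. The share called is near the 40.9% of all genes, where 20.4% were called higher and 20.5% lower. Besides Timp3, Sparc, a collagen-binding protein, rose by 3.73, Timp2 by 2.88 and the collagen chain gene Col4a5 by 2.16, and the laminin gene Lama1 fell by −1.20 (adjusted p = 0.0465), a call lost under 8 alternatives. The list had 3 rises and 2 falls against Glast+ P7 cells, with a median of 0.49. Of 24 genes of glial adhesion and the outer limiting membrane, 9 rose and 4 fell, with a median of 0.35 that was −0.39 under median scaling. Dag1 and Dtna, of the dystroglycan complex that anchors Müller endfeet, rose by 1.93 and 3.48. The hyaluronan receptor gene Cd44 rose by 3.95 (0.38 at its lowest probe) and the polarity gene Mpp5 by 1.66. Cdh4, Ctnnb1, Nf2 and Pard6a fell by −2.11, −1.61, −1.22 (0.08 at the other Nf2 probe) and −0.81.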

How the data were processed

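RNA of sorted mouse retinal cells was amplified to biotin-labelled cRNA, per the labels' protocols, and hybridised to single-channel long-oligonucleotide arrays. The deposited scanner files hold spot and local background intensity as GenePix Pro wrote them, per the file headers, with no normalization. In the authors' deposited table each value was found to be a spot's net intensity times a factor per array (0.327 to 2.53). It was used as an alternative.

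Intensities were background-corrected (normexp, offset 50), quantile normalized over 34312 transcript probes and put on the log2 scale. A probe was kept if found on all arrays of at least 1 group, and a gene was represented by its brightest kept probe. RefSeq names (GRCm38.p6) reached 22987 probes, and 11325 stayed unnamed. The test was limma 3.58.1 in R 4.3.3 over 8 group means, with the Glast+ P28 arrays averaged to 1 sample and p-values adjusted over 12612 genes. The code was tested on simulated data. The number of arrays limits the precision.

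Genes named were a fixed set, the 12 largest differences per direction, up to 4 called members per direction with the smallest adjusted p in each of 35 gene lists, and all shared transcription factors, Notch and DNA methylation genes. Some genes that this rule names are not reported here, though they count in the lists. Further genes were named after their values were seen. The members and lists were chosen with earlier results of these data known. Same-numbered arrays of the 2 groups did not deviate together (r = 0.02 and 0.08), so numbers were not taken as pairs.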

Additional observations from a re-analysis of the deposited data

How the results depend on the processing

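Between Glast+ P28 and Notch1+ P0 cells the count of calls stayed within 1.5 times of 5160 under all 18 alternatives. It ran from 4155 with a 2-fold filter and 4402 with cyclic loess to 6672 with the Glast+ P28 arrays as 2 samples. It was 6381 with the replicate block added, and 4493 to 5232 when leaving out 1 array. Between Glast+ P28 and Glast+ P7 cells the 2997 calls became 1850 under cyclic loess (66.8% higher), 4842 with only the groups compared, 4691 with the P28 arrays as 2 samples and 4618 with the replicate block. Leaving out 1 array gave 1811 to 3125, the lowest without Glast+ P7 replicate 2 and 1895 without replicate 1. With median scaling 23.3% of 2083 calls were higher, with a median of −0.28 over all genes.

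Under median scaling the medians of shared transcription factors (−0.24), amacrine (−0.14), adhesion (−0.39) and synaptic vesicle genes (−0.29) changed sign, as did Vim (−0.36), Nrarp (−0.94), Dhcr7 (−0.14) and Vamp2 (−0.0032). With the authors' values the ganglion cell median was 0.31. With the mean of a gene's probes Igf2bp1 (−2.21) changed sign. The cause was not tested. Over all alternatives 453 list medians moved by less than the spread between the Notch1+ P0 arrays, 172 moved further and 5 reversed. Medians could not move with another prior for the spread, a 2-fold filter, only the groups compared, or the Glast+ P28 arrays as 2 samples. The unmoved medians of those settings count among the 453. Of the values of named genes, 3967 stayed on their side of the threshold without a counted reversal, 164 lost the call, 53 gained one and 5 reversed. A sign change was counted as a reversal only if the main setting or that same alternative called the gene.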

Other observations

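Genes of reprogramming and pluripotency moved both ways. Of 8 tested, 3 rose and 1 fell in Glast+ P28 cells, a share near the 40.9% called over all genes, with a median of 0.25. Mycl, a Myc family factor, stood at 7.36 and 7.47 in Glast+ P28 cells and at 14.27, 14.39 and 13.90 in Notch1+ P0 cells (−6.77, limma adjusted p = 6.95e-07). In Notch1+ cells it averaged 14.5 at P3 and 11.2 at P14, and in Glast+ cells 12.8 at P7, 9.4 at P14 and 8.3 at P21. Klf4 rose by 4.43 (adjusted p = 0.000144), and the nuclear receptor gene Esrrb, which rods also express, by 5.75 (adjusted p = 7.72e-05). Myc itself was low, at 7.67 and 7.43 in Glast+ P28 cells, and was found on no Notch1+ P0 array.

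Of 46 genes of Müller regeneration and growth signalling, 23 rose and 7 fell, with a median of 1.05. The cytokine gene Tnf rose by 6.54, Tgfbr2, a TGF-beta receptor, by 6.08 (0.78 at its lowest probe), and the matricellular gene Ccn2 by 4.49. Insm1, a neurogenic zinc finger factor, fell by −4.65, and Sfrp2 fell as given above. Microglia genes were higher in Glast+ P28 cells as well, and their part in the Tnf value was not tested. Of 23 synaptic vesicle genes, 4 rose and 1 fell (Cplx2, −1.67), a share below the 40.9% called over all genes. Cplx4 and Stx3, found at photoreceptor synapses, were 3.60 and 3.53 higher, with 0.13 at the other Stx3 probe.

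Among the largest falls were genes outside the cell cycle. Sstr2, a somatostatin receptor, stood at 7.27 and 7.26 in Glast+ P28 cells, against 14.80, 14.77 and 14.93 in Notch1+ P0 cells, and was low in Glast+ cells at P7 too (mean 7.2). Rsph1, a component of motile cilia, differed by −6.32 and Chrna4, a nicotinic receptor subunit, by −6.31. Chrna4 still averaged 12.4 in Glast+ P7 cells.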
